A study of Mus musculus with 20 samples.

Results

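The genes described here are 9 genes of secondary granules and mature neutrophils, namely Ltf, Camp, Ngp, Mmp8, Mmp9, S100a8, S100a9, Wfdc21 and Chil1. A member was the probe set whose array annotation gave that symbol and no other. Each of the 9 symbols had 1 such probe set, so all 9 were found among the 19505 named genes (19572 named probe sets) of the array. They were followed in RNA from 20 Mouse Clariom S arrays, 2 for each of 10 groups, which hold cultured and freshly isolated erythroblasts of C57BL/6 mice.

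The cultured groups came from 2 female wild-type mice, whose bone marrow was depleted of cells carrying mature lineage markers and grown in medium with erythropoietin, the hormone that drives red cell formation. D1-IL6 and D2-IL6 received recombinant mouse interleukin 6 (IL-6, an inflammatory cytokine) at 100 ng/mL from the start, and D1-Control and D2-Control did not. The labels name the collection points D1 and D2 without further definition. The isolated groups came from mice aged 1 year, either mDia1-miR-146a double knockout (DKO, 2 mice, all female arrays) or double wild type (DWT, 2 mice, of which replicate 1 is the male and replicate 2 the female at every stage). They were DKO-I and DWT-I (proerythroblasts), DKO-II+III and DWT-II+III (basophilic and polychromatic erythroblasts), and DKO-IV and DWT-IV (orthochromatic erythroblasts, the last nucleated stage). The labels do not say how the stages were separated, in which cells the knockout alleles are deleted, or which arrays of the DKO stages come from the same mouse. Replicate numbers of all groups other than DWT only name arrays. The cultured groups can share the 2 donor mice, and the main tests treat all arrays as independent. With 2 arrays a group, p-values measure only the spread between these arrays.

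A developing neutrophil fills its granules in waves. Primary granule proteins such as myeloperoxidase are made first, by promyelocytes. Secondary granule proteins follow in myelocytes and metamyelocytes, under the transcription factor C/EBP epsilon (Cebpe), and gelatinase and the abundant cytosolic calgranulins accumulate last. Among the members, Ltf encodes lactoferrin, an iron-binding antimicrobial protein, Camp the cathelicidin antimicrobial peptide, and Ngp a granule protein related to cathelicidins and cystatins. Mmp8 is neutrophil collagenase and Mmp9 is gelatinase B. S100a8 and S100a9 form the heterodimer calprotectin, which binds calcium and sequesters zinc and manganese. Wfdc21 is a small protein with a WAP domain, and Chil1 is a chitinase-like lectin without chitinase activity.

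The sequences just upstream of the transcription start were read for the members from RefSeq (build GRCm38.p6), where 7 of 9 matched by symbol. Mmp9 and Wfdc21 did not match. The 250 bases before the start are printed for 5 members, because Mmp8 and S100a8 rose with IL-6 in culture while Ltf and Camp were below background in every cultured array and Ngp was above it at D1 only, and because all 5 were high in isolated stage I cells. Capitals mark letters of the C/EBP motif TTNNGCAA or of the PU.1 motif GAGGAA, on either strand. Each sequence runs 5′ to 3′ on the strand of its gene.
Mmp8, chr9:7558179-7558428, plus strand: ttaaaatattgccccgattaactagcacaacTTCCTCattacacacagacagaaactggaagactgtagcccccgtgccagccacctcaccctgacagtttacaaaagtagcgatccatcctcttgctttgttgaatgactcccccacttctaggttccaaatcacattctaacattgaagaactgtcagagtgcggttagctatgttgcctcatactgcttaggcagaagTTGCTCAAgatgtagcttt
S100a8, chr3:90668821-90669070, plus strand: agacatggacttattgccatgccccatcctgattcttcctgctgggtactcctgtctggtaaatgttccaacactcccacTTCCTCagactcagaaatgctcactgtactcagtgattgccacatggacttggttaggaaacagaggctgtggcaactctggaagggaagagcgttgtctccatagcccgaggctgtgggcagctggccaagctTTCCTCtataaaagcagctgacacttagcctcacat
Ltf, chr9:111019042-111019291, plus strand: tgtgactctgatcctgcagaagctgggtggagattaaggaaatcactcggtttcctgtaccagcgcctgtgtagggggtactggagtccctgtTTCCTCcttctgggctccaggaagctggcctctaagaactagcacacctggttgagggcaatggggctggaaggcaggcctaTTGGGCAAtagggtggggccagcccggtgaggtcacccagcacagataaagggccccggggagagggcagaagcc
Ngp, chr9:110419558-110419807, plus strand: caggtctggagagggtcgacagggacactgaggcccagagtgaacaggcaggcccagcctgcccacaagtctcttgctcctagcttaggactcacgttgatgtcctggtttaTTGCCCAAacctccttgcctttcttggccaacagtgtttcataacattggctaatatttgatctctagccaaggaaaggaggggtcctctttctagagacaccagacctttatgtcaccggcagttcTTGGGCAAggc
Camp, chr9:109849457-109849706, minus strand: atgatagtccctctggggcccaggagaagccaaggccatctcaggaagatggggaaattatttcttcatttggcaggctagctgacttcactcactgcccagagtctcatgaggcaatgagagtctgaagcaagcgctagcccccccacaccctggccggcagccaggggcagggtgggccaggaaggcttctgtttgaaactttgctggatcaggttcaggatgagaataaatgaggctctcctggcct

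The C/EBP letters stood in 4 of the 7 matched windows, against 9.56% of 32851 RefSeq windows of the same length. They lay at -19 to -12 in Mmp8, at -75 to -68 in Ltf, at -138 to -131 and -11 to -4 in Ngp, and at -236 to -229 in S100a9. The PU.1 letters stood in 3 of 7, in Mmp8, Ltf and S100a8 (at -170 and -36 in the last), against 23.3% of windows. The STAT motif TTCNNNGAA and the GATA letters TGATAA stood in 0 of 7, against 7.02% and 7.94% of windows. Other letters around the core GATA were not counted, such as AGATAA in the Ltf window and TGATAG in the Camp window. No motif overlapped another in the members. These matches are a description of letters, and factor binding was not measured.

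Signals are log2 values, so a difference of 1 is a factor of 2 in signal, and levels of different probe sets are not compared with each other. An array's background level, the 95th percentile of its 23 background probe sets, lay between 7.25 and 7.74, and 34.9% to 43.0% of named probe sets were above it. Diaph1, which encodes mDia1, was between 6.87 and 7.59 in the 6 DKO arrays, below background in each, and between 9.29 and 11.49 in the 6 DWT arrays. The position of that probe set relative to the deletion is unknown. DKO-I replicate 2 stood apart, with a correlation of 0.903 with the other DKO-I array, while arrays of every other group correlated at 0.970 or higher, and its ribosomal protein gene Rps14 was at 12.32, against 16.02 to 17.28 in the other 19 arrays. Member comparisons with DKO-I, the member correlations and some other tests are given with and without it. The remaining tests of isolated arrays share its estimate of the spread and are given with it only. Erythroid markers were present in all 20 arrays (mean log2 signal of 9 markers 14.71 to 15.24 in the cultured and 9.65 to 15.80 in the isolated arrays), lowest in the DKO-I arrays. The isolated arrays also held signal of other cells, with 9 to 11 of 11 monocyte and macrophage markers and 4 to 7 of 7 T and NK cell markers above background, against 4 to 8 and 1 to 2 in the cultured arrays. In bulk RNA, a change in the number of cells that make a transcript and a change in the RNA per cell cannot be told apart.

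The 9 members were high in early isolated cells and, apart from Mmp8 and, in D2-IL6, Wfdc21, lower in cultured cells. The mean log2 signal over the 9 members was 17.13 and 16.11 in DKO-I, 16.26 and 16.44 in DWT-I, 15.49 and 15.61 in DKO-II+III, 11.505 and 12.998 in DWT-II+III, 12.56 and 12.16 in DKO-IV, and 8.19 and 10.10 in DWT-IV. In culture it was 7.87 and 8.53 in D1-IL6, 7.49 and 8.16 in D1-Control, 8.39 and 8.15 in D2-IL6, and 6.28 and 6.30 in D2-Control. The genotypes did not overlap in this mean at II+III or IV, and the D2-Control arrays were the lowest of all. All 9 members were above background in every array of DKO-I, DWT-I and DKO-II+III, and 8 of 9 in each array of DWT-II+III and DKO-IV. In DWT-IV, 5 members were above background in replicate 1 and 8 in replicate 2. In culture 5 were above background in each D1 array, 4 and 3 in D2-IL6, and 1 and 0 in D2-Control. Ltf, Camp, Mmp9 and Chil1 were below background in all 8 cultured arrays. For each member except Mmp8 the 3 highest group means were those of DKO-I, DWT-I and DKO-II+III, while for Mmp8 D2-IL6 took the third place.

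**Figure D1:**
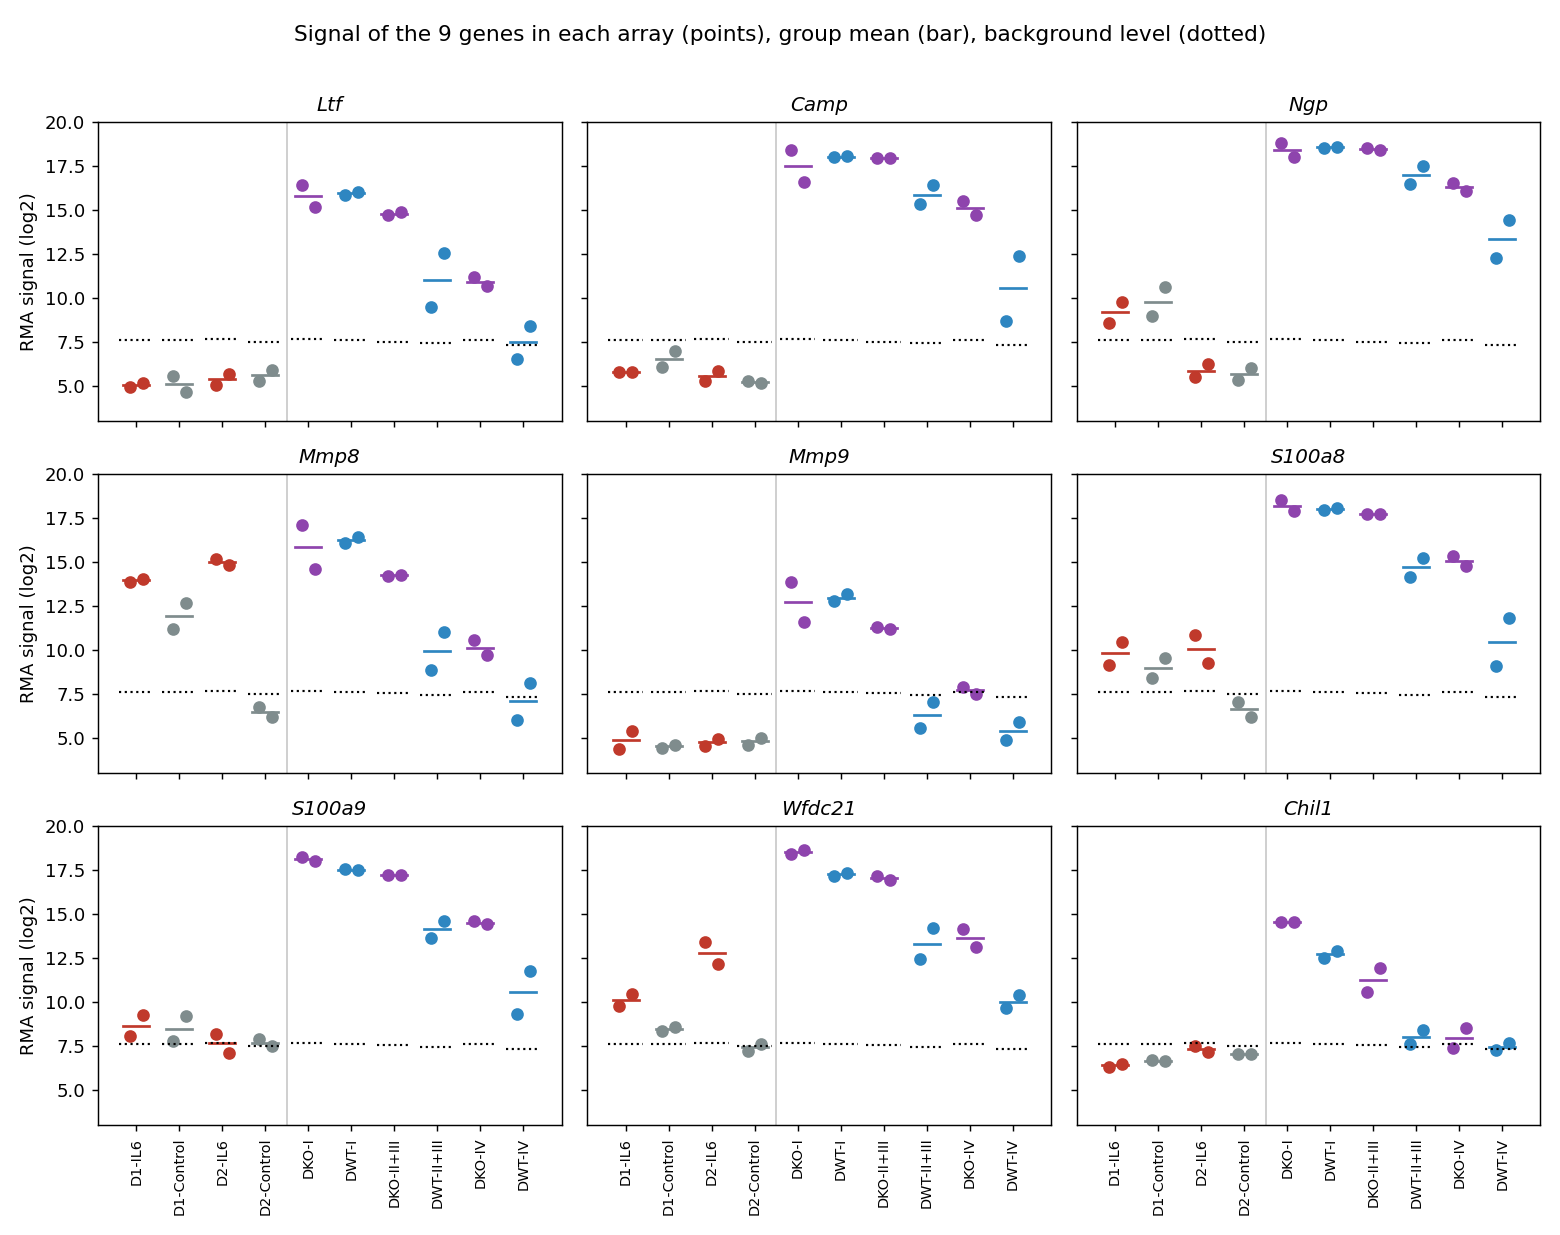
Log2 signal of each of the 9 members (1 panel a gene) in every array of the 10 groups, with points for single arrays, a bar for the mean of 2 and a dotted line for the background level (7.25 to 7.74). Ltf, Camp, Mmp9 and Chil1 lie below the line in all 8 cultured arrays, and for Mmp8 the D2-IL6 arrays lie above those of DKO-II+III.

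The lactoferrin gene Ltf is an example of the course over the stages. In DKO erythroblasts its log2 signal was 16.40 and 15.17 at stage I, 14.74 and 14.87 at stage II+III, and 11.18 and 10.70 at stage IV. In DWT erythroblasts it was 15.87 and 16.04 at stage I, 9.52 and 12.55 at stage II+III, and 6.55 and 8.44 at stage IV. The stages did not overlap within either genotype, and the genotypes separated at II+III and IV but overlapped at stage I. Camp and Ngp were still close to their own stage I signal in DKO-II+III. There the DKO arrays had 17.95 and 17.97 for Camp and 18.52 and 18.43 for Ngp, while the DWT arrays had 15.32 and 16.45 for Camp and 16.49 and 17.50 for Ngp. At stage I Camp had 18.41 and 16.59 in DKO against 18.02 and 18.05 in DWT, and Ngp had 18.80 and 18.03 in DKO against 18.53 and 18.58 in DWT, so the genotypes overlapped in both. At stage IV Camp had 15.52 and 14.74 in DKO against 8.69 and 12.42 in DWT, and Ngp 16.51 and 16.09 in DKO against 12.27 and 14.44 in DWT. The spread within DWT-IV was wide for Camp, where the male array was 3.73 below the female. The highest Camp and Ngp signals lie near 19.28, the highest value of any probe set, and compression of differences there was not tested.

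Of the metalloprotease genes, Mmp9 went below background in DWT cells after stage I. Its log2 signal in DKO was 13.84 and 11.60 at stage I, 11.33 and 11.17 at II+III, and 7.91 and 7.52 at IV. In DWT it was 12.78 and 13.15 at stage I, 5.56 and 7.06 at II+III, and 4.91 and 5.92 at IV, and the DKO-IV arrays lay close to background. For Mmp8 the DKO arrays had 17.11 and 14.61, 14.22 and 14.25, and 10.55 and 9.70 over the same stages. The DWT arrays had 16.05 and 16.41, 8.87 and 11.03, and 6.03 and 8.13. Mmp8 was lower at each later stage in both genotypes. So was Mmp9, except from II+III to IV in DWT, where all arrays were below background and the stages overlapped. The genotypes did not overlap at II+III or IV in either gene.

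The calgranulin genes S100a8 and S100a9 were lower at each later stage in both genotypes. S100a8 in DKO was 18.50 and 17.87 at stage I, 17.71 and 17.71 at II+III, and 15.31 and 14.76 at IV. In DWT it was 17.92 and 18.07, 14.13 and 15.24, and 9.07 and 11.79. S100a9 in DKO was 18.24 and 17.96, 17.22 and 17.21, and 14.59 and 14.39, and in DWT 17.50 and 17.47, 13.63 and 14.60, and 9.28 and 11.77. The genotypes did not overlap at II+III or IV in either gene. At stage I they overlapped in S100a8, while both DKO arrays lay above both DWT arrays in S100a9.

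Wfdc21 and Chil1 were the members with the largest genotype difference at stage I. Wfdc21 in DKO was 18.37 and 18.62 at stage I, 17.16 and 16.93 at II+III, and 14.11 and 13.09 at IV. In DWT it was 17.16 and 17.31, 12.43 and 14.17, and 9.62 and 10.36. Chil1 in DKO was 14.51 and 14.53, 10.56 and 11.92, and 7.40 and 8.50, and in DWT 12.49 and 12.90, 7.60 and 8.37, and 7.24 and 7.66. The Chil1 arrays of the genotypes overlapped at stage IV, where the signal was close to background. In DWT-II+III replicate 1 Chil1 was also at background, with 7.604 against a level of 7.578. Its changes that use DWT-II+III rest partly on that level.

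Between stages I and II+III the group means of all 9 members lay further apart in DWT than in DKO cells, a difference whose own test, the stage interaction of the DKO effect, did not pass. From DWT-I to DWT-II+III all 9 members were lower, and 4 passed at an adjusted p under 0.05 (limma, Benjamini-Hochberg over all 19572 named probe sets), where 0.22% of all probe sets fell. Mmp9 fell by 6.65 ± 0.72 (SE; adjusted p = 0.00617; n = 2 arrays per group throughout), or fell by 5.53 when DWT-II+III is held at background. Mmp8 fell by 6.28 ± 0.94 (adjusted p = 0.0287), Chil1 fell by 4.71 ± 0.56 (adjusted p = 0.01) and Wfdc21 fell by 3.94 ± 0.54 (adjusted p = 0.0193). Ltf, S100a9, S100a8, Camp and Ngp had differences of -4.92, -3.37, -3.31, -2.15 and -1.56 and did not pass. The count was 7 of 9 with the mouse as replicate block in the DWT arrays (4.25% of all probe sets passed), and 7 as well in the DWT arrays without that block (3.33%), so the block itself did not move it. With 1 array of a compared group left out, calls were lost, but that group then rests on 1 array. The difference then ran from -7.41 to -5.90 for Mmp9 and from -4.81 to -3.06 for Wfdc21.

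Between DKO-I and DKO-II+III 1 of 9 members passed, where 0.0869% of all probe sets fell. It was Chil1, which fell by 3.28 ± 0.56 (adjusted p = 0.0414), a call that was lost without DKO-I replicate 2, DKO-II+III replicate 1 or DKO-II+III replicate 2. Mmp8, Mmp9 and Wfdc21 had differences of -1.63, -1.47 and -1.45, and Camp and Ngp had 0.46 and 0.06. Without DKO-I replicate 2 all 9 members were lower, Camp and Ngp changed sign, the median was -1.32, and 0 passed, beside 0.603% of all probe sets.

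From stage II+III to IV the group means of all 9 members were lower in both genotypes, although Mmp9 in DWT was below background at both stages. In DKO, 7 of 9 passed, where 3.66% of all probe sets fell. Mmp8 fell by 4.11 ± 0.94 (adjusted p = 0.0258) and Ltf fell by 3.86 ± 0.89 (adjusted p = 0.0272). The fall was larger than the array spread for the other 5 as well, since Mmp9 fell by 3.54 ± 0.72, Wfdc21 fell by 3.45 ± 0.54, Chil1 fell by 3.30 ± 0.56, S100a9 fell by 2.72 ± 0.64 and S100a8 fell by 2.68 ± 0.71, with adjusted p between 0.00655 and 0.0457. The call of S100a8 was lost with median centring or no intensity trend. Camp and Ngp had -2.83 and -2.17 and did not pass. In DWT, 6 of 9 passed, where 3.57% of all probe sets fell. Camp fell by 5.33 ± 0.98 (adjusted p = 0.0177) and S100a8 fell by 4.26 ± 0.71 (adjusted p = 0.0141). Ngp fell by 3.64 ± 0.59, S100a9 fell by 3.59 ± 0.64, Ltf fell by 3.54 ± 0.89 and Wfdc21 fell by 3.31 ± 0.54, with adjusted p between 0.0133 and 0.0482. The call of Ltf was lost with quantile normalization, median centring, no intensity trend, all transcript probe sets or only the 4 arrays compared. Mmp8 had -2.87 (adjusted p = 0.108) and did not pass, nor did Mmp9 and Chil1. Erythroid markers moved the other way, and the group means of all 9 were higher at IV than at II+III in both genotypes. Their medians were 2.96 in DKO and 1.42 in DWT, beside 0.06 and 0.12 over all named probe sets. Of these 9 markers 8 passed in DKO and 2 in DWT. Their part in the member changes was not tested. With 1 array of a compared group left out, calls were lost in both genotypes, but that group then rests on 1 array. The difference of Ltf in DKO then ran from -4.11 to -3.62, and that of Camp in DWT from -7.19 to -3.46. The stage steps and the genotype comparisons share arrays, so their values are set side by side and not correlated.

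Compared with DWT at the same stage, 3 of the 9 members passed in DKO at II+III, all higher, and 0 passed at stages I and IV. At II+III 0.22% of all probe sets rose. The arrays of the genotypes did not overlap in any of the 9, with DKO higher, as in 23% of all probe sets. Mmp9 was higher by 4.94 ± 0.72 (adjusted p = 0.0144), at least 14.06-fold when DWT is held at background, Wfdc21 by 3.74 ± 0.54 (adjusted p = 0.0144) and Chil1 by 3.26 ± 0.56 (adjusted p = 0.0303). Mmp8 had 4.28 ± 0.94 (adjusted p = 0.0885), Ltf 3.77 ± 0.89 (adjusted p = 0.114), S100a9 3.10 ± 0.64 (adjusted p = 0.0677), S100a8 3.03 ± 0.71 (adjusted p = 0.110), Camp 2.08 ± 0.98 and Ngp 1.48 ± 0.59, and these did not pass. The median difference of the members was 3.26, beside 0.01 over all named probe sets. Without DKO-I replicate 2 in the fit, 7 of 9 passed, all but Camp and Ngp, beside 2.96% of all probe sets. With the male arrays left out 0 members passed, and 0% of all probe sets. With only the 4 arrays compared Wfdc21 and Chil1 were not called.

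**Figure D2:**
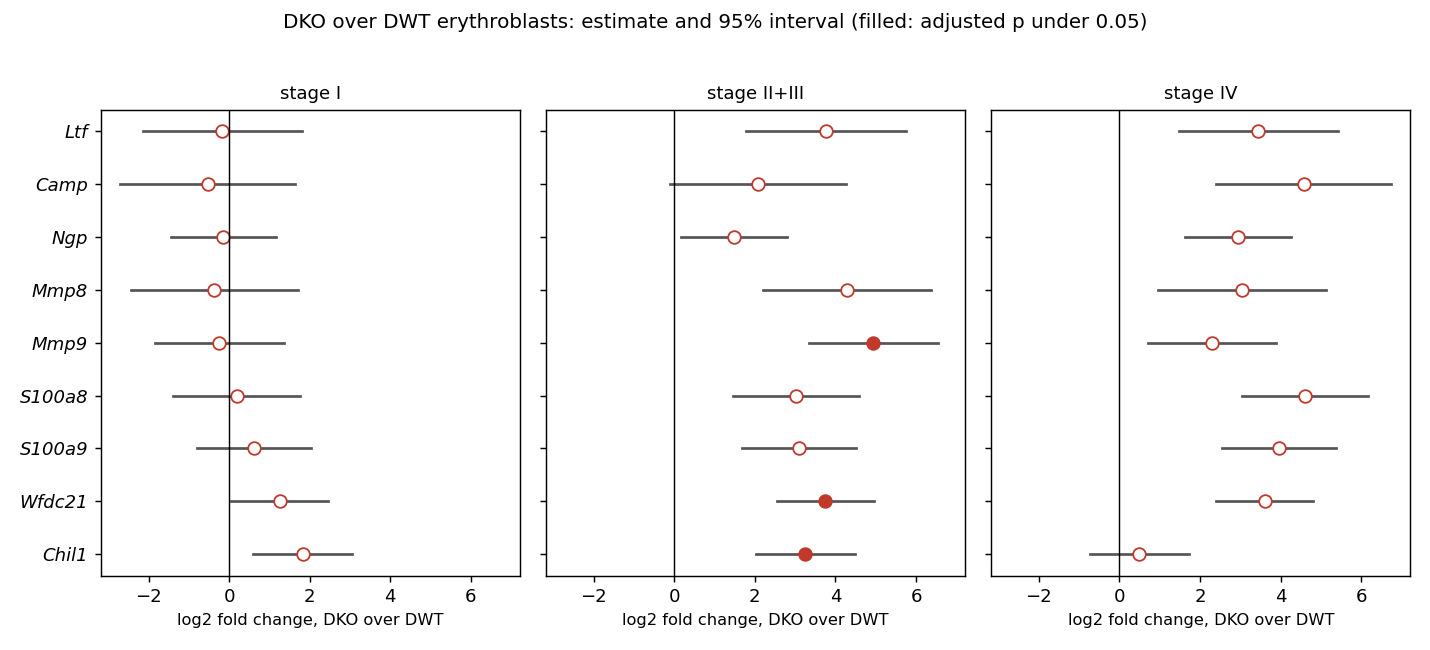
DKO over DWT log2 fold change of the 9 members in 1 panel a stage, with lines for the 95% interval from the limma fit and filled symbols for adjusted p under 0.05. At stage I the members scatter around 0, at II+III all 9 are at 1.48 or higher and 3 are filled, and at IV all 9 are positive and 0 are filled.

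All DKO mice were female, and the male and female DWT arrays were not alike in these genes. The male DWT array was lower than the female in 9 of 9 members at II+III and at IV and in 8 of 9 at stage I, as it was in 50.4%, 50.3% and 49.7% of all probe sets at these stages. Against the female DWT array alone, both DKO arrays were higher in 9 of 9 members at II+III (34.4% of all probe sets), and the DKO mean minus that array ran from 0.97 to 4.18 with a median of 2.61. At IV both DKO arrays were higher than the female DWT array in 8 of 9 (35.6% of all probe sets), with differences of 0.29 to 3.25 and a median of 2.50. Which part of the genotype difference belongs to sex or to the single mouse cannot be told apart in this design beyond these values. At II+III the calls of Mmp9 and Wfdc21 were lost without DWT-II+III replicate 1, DKO-II+III replicate 1 or DKO-II+III replicate 2. The call of Chil1 was lost without DWT-II+III replicate 1, DWT-II+III replicate 2 or DKO-II+III replicate 2.

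At stage IV all 9 members had a positive difference and 0 passed, where 0.0204% of all probe sets rose and 1588 had an unadjusted p under 0.05. Of the 9, 8 had an unadjusted p under 0.05, and 8 did not overlap between genotypes, the exception being Chil1, while 22.4% of all probe sets did not overlap with DKO higher. S100a8 had 4.60 ± 0.71 and Wfdc21 3.61 ± 0.54 (adjusted p = 0.0632 for each), S100a9 3.96 ± 0.64 (adjusted p = 0.0823), Camp 4.58 ± 0.98 (adjusted p = 0.196) and Ngp 2.95 ± 0.59 (adjusted p = 0.167). Ltf had 3.44 ± 0.89, Mmp8 3.04 ± 0.94 and Mmp9 2.30 ± 0.72, with adjusted p of 0.303, 0.406 and 0.418. With DWT-IV held at background the difference of Mmp9 was 0.39. Ltf and Mmp8 were below background in DWT-IV replicate 1, and no bound is given for them. The median of the members was 3.44, beside -0.02 over all named probe sets. Without DKO-I replicate 2 in the fit S100a8, S100a9 and Wfdc21 passed, beside 0.307% of all probe sets.

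At stage I 0 members passed, where 0.445% of all probe sets passed in either direction and 3028 had an unadjusted p under 0.05, 2 members among them. Chil1 had 1.83 ± 0.56 (adjusted p = 0.231) and Wfdc21 1.26 ± 0.54 (adjusted p = 0.313). The median was -0.14, with members from -0.53 to 1.83. Without DKO-I replicate 2 all 9 were higher in DKO, Ltf, Camp, Ngp, Mmp8 and Mmp9 changed sign, the median was 0.75, and 0 passed, beside 0.552% of all probe sets.

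Whether the DKO effect differs between stages was tested as an interaction. From stage I to II+III the difference of effects was positive in all 9 members, from 1.43 to 5.18 with a median of 2.61, and 6 had an unadjusted p under 0.05. None passed, nor did any of the 19572 probe sets (0% called, limma), of which 942 had an unadjusted p under 0.05. With DKO-I replicate 2 left out the difference ran from 1.24 to 4.06 with a median of 2.53, again 6 members had an unadjusted p under 0.05, and 0 passed. From II+III to IV the difference was negative for Mmp9 (-2.64 ± 1.02) and Chil1 (-2.76 ± 0.79), the only members with an unadjusted p under 0.05, and 0% of probe sets passed, of which 662 had an unadjusted p under 0.05.

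Markers of other cell types also differed between genotypes in the isolated cells, and not all in the direction or at the stages of the members. Erythroid markers were lower in DKO at stage I, with 7 of 9 falling and a median of -3.25, among them Slc4a1 (band 3, -3.73 ± 0.32) and Klf1 (a red cell transcription factor, -3.33 ± 0.53). With DKO-I replicate 2 left out the count was 6 of 9 with a median of -3.25, Slc4a1 had -3.25 ± 0.19 and Klf1 -3.72 ± 0.55. At II+III all 9 were lower in DKO, with a median of -1.51, and 2 of 9 passed. Ermap fell by 2.92 ± 0.40 and Slc4a1 fell by 2.06 ± 0.32. At IV 0 of 9 passed, with a median of -0.23. The mean signal of 6 neutrophil markers that are not members (all 6 also stand in the granule and surface lists of other neutrophil genes) was 11.78 and 11.72 in DKO-II+III, against 7.96 and 9.80 in DWT-II+III, and 8.74 and 8.29 in DKO-IV, against 6.12 and 7.38 in DWT-IV. All 6 were higher in DKO at II+III with a median of 2.52, and 0 passed. Of 11 monocyte and macrophage markers, 5 at stage I and 8 at II+III and at IV had a positive difference, with medians of -0.18, 0.53 and 0.57. Without DKO-I replicate 2 the stage I median was 0.62. Fcna was the only one of these markers called at each stage. It marks marrow macrophages, was below background in all 6 DKO arrays and fell at each stage. At II+III it fell by 5.36 ± 0.49, or fell by 3.47 with DKO held at background. Median differences of eosinophil markers were -4.02, -1.66 and -0.20 at I, II+III and IV. Those of mast cell and basophil markers were -1.42, -2.55 and -1.33, and those of T and NK cell markers 1.02, 0.82 and 0.76. Without DKO-I replicate 2 these stage I medians were -2.29, -1.40 and 2.73. B cell, megakaryocyte and stem cell markers are not listed here. The part of these other cells in the member results was not tested.

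**Figure D3:**
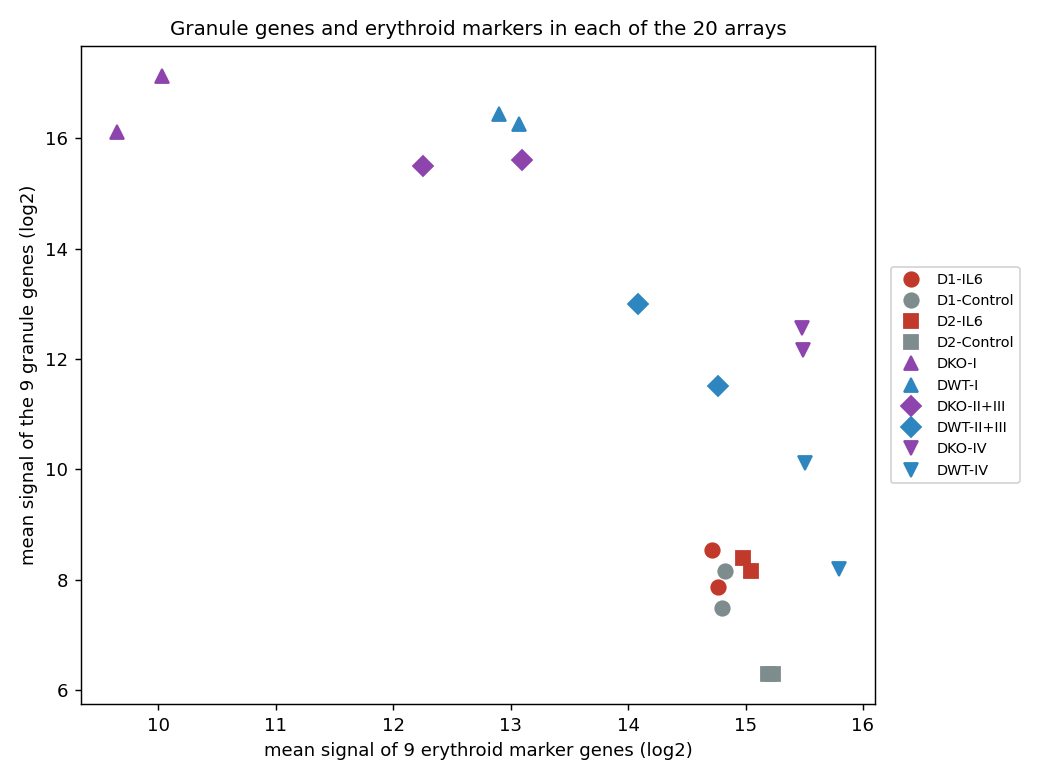
Mean log2 signal of the 9 members (vertical) against that of 9 erythroid markers (horizontal) in each of the 20 arrays, with 1 symbol and colour a group. Isolated arrays run from high members with low erythroid signal in DKO-I to low members with high erythroid signal in DWT-IV, and the 8 cultured arrays lie at 14.71 to 15.24 on the erythroid axis.

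In culture, IL-6 raised 3 of the 9 members at D2, Mmp8 most. The neutrophil collagenase Mmp8 had 15.19 and 14.84 in D2-IL6, against 6.74 and 6.18 in D2-Control, where both arrays were below background. It rose by 8.55 ± 0.40 (adjusted p = 1.2e-06), at least 184.6-fold with D2-Control held at background. Its D2-IL6 arrays lay above those of DKO-II+III (14.22 and 14.25), and the cultured and isolated cells were not tested against each other.

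Wfdc21 had 13.39 and 12.14 in D2-IL6, against 7.21 and 7.61 in D2-Control. It rose by 5.36 ± 0.41 (adjusted p = 2.53e-05), at least 38.93-fold with D2-Control held at background. S100a8 had 10.84 and 9.28 in D2-IL6, against 7.07 and 6.22 in D2-Control, and rose by 3.42 ± 0.60 (adjusted p = 0.0096), at least 5.96-fold. The 3 genes make 3 of 9 members, where 2.92% of all probe sets rose. S100a8 was not called without D2-Control replicate 2 or without D2-IL6 replicate 1 (adjusted p up to 0.0785), while Mmp8 and Wfdc21 were called in all 4 such fits.

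S100a9, the partner of S100a8, lay close to background at D2 and did not pass. It had 8.19 and 7.10 in D2-IL6, against 7.86 and 7.50 in D2-Control, so the groups overlapped. In each group 1 of 2 arrays was above background. Ltf, Camp, Ngp, Mmp9 and Chil1 were below background in both groups at D2. The member median at D2 was 0.29, beside -0.07 over all named probe sets.

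At D1 0 of 9 members passed, where 0.0511% of all probe sets passed and 554 had an unadjusted p under 0.05, 3 members among them. Mmp8 had 13.87 and 14.04 in D1-IL6, against 11.18 and 12.66 in D1-Control, a difference of 2.04 ± 0.40 (adjusted p = 0.377) without overlap. Wfdc21 had 9.75 and 10.42 in D1-IL6, against 8.32 and 8.57 in D1-Control, a difference of 1.64 ± 0.41 (adjusted p = 0.716), also without overlap. S100a8 had 9.15 and 10.48 in D1-IL6, against 8.40 and 9.54 in D1-Control, and these overlapped. The other 6 members had differences between -0.76 and 0.36, and the median of the 9 was 0.18.

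The IL-6 effect was larger at D2 than at D1 for Mmp8, by 6.52 ± 0.57 (adjusted p = 0.000379), and for Wfdc21, by 3.72 ± 0.58 (adjusted p = 0.00967), in the limma interaction test. The call of Wfdc21 was lost with all 20 arrays in 1 fit, without D1-Control replicate 2 and without D1-IL6 replicate 1 (adjusted p up to 0.0786). These 2 of 9 members stand beside 1.17% of all probe sets with a larger effect at D2. For S100a8 the difference was 2.58 ± 0.85 (adjusted p = 0.352) and for Camp 1.07 ± 0.46 (adjusted p = 0.598).

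**Figure D4:**
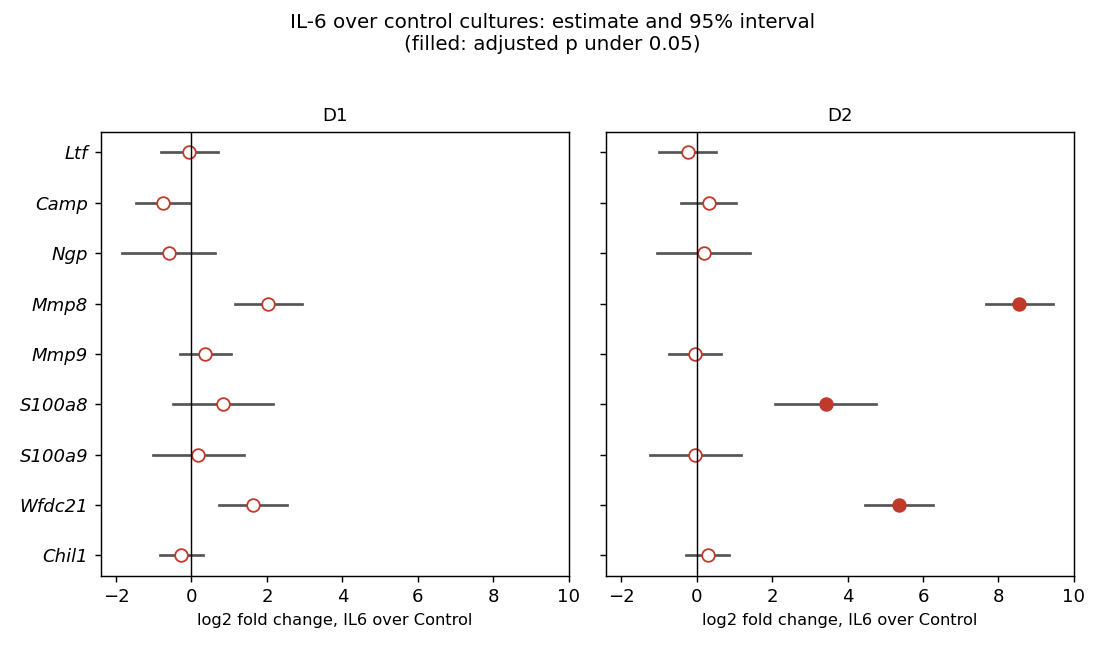
IL-6 over Control log2 fold change of the 9 members at D1 and D2, with lines for the 95% interval from the limma fit and filled symbols for adjusted p under 0.05. Mmp8, Wfdc21 and S100a8 are filled at D2, with 8.55 for Mmp8, and 0 members are filled at D1.

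Without IL-6, 4 of the 9 members fell between D1 and D2, where 23.5% of all probe sets fell. In D2-Control, Mmp8 had 6.74 and 6.18, against 11.18 and 12.66 in D1-Control, and it fell by 5.46 ± 0.40 (adjusted p = 2.17e-06), or fell by 4.44 with D2-Control held at background. Ngp had 5.36 and 6.03 in D2-Control, against 9.0 and 10.61 in D1-Control, and fell by 4.10 ± 0.56 (adjusted p = 0.000172), or fell by 2.32 with D2-Control held at background. S100a8 fell by 2.33 ± 0.60 (adjusted p = 0.0102), or fell by 1.49 against background, and Camp, below background in both groups, fell by 1.29 ± 0.33 (adjusted p = 0.00936). Wfdc21 had -1.04 ± 0.41 (adjusted p = 0.0617), or -0.96 with D2-Control held at background. The call of S100a8 was lost without D1-Control replicate 2 or D2-Control replicate 2, and that of Camp without D1-Control replicate 2 or with all 20 arrays in 1 fit.

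With IL-6, 3 of the 9 members passed between D2 and D1, where 33.2% of all probe sets passed in either direction. Wfdc21 had 13.39 and 12.14 in D2-IL6, against 9.75 and 10.42 in D1-IL6, and rose by 2.68 ± 0.41 (adjusted p = 0.000483). Ngp had 5.50 and 6.28 in D2-IL6, against 8.59 and 9.81 in D1-IL6, and fell by 3.31 ± 0.56 (adjusted p = 0.000965), or fell by 1.54 with D2-IL6 held at background. Chil1 rose by 0.93 ± 0.26 (adjusted p = 0.0173) with both groups below background, and that call was lost with all 20 arrays in 1 fit and without D1-IL6 replicate 1, D1-IL6 replicate 2 or D2-IL6 replicate 1. Mmp8 had a difference of 1.06 ± 0.40 (adjusted p = 0.0667). Each of the 4 cultured groups serves in 2 of these comparisons, so the comparisons share arrays.

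Genes of neighbouring steps of neutrophil development, taken from lists that were chosen with earlier results of these data known, did not all move with the members. At D2, IL-6 raised 6 of 10 primary granule genes, with Ctsc (the protease that activates granule serine proteases) up by 5.32 ± 0.34 and Elane (neutrophil elastase) by 3.50 ± 0.34. It raised 9 of 16 other secondary and tertiary granule genes, with Hp (haptoglobin) up by 6.53 ± 0.32, at least 4.16 against background, and Lcn2 (lipocalin 2, which binds siderophores) by 6.11 ± 0.28, at least 3.22. Of 12 calgranulin receptors and other S100 genes, 4 rose, with S100a4 at 5.60 ± 0.45 and S100a6 at 5.03 ± 0.37. Csf3r, the receptor for granulocyte colony-stimulating factor, rose by 4.52 ± 0.30, at least 2.29 against background, and was the only 1 of 6 measured non-member neutrophil markers to pass. Of 12 late neutrophil surface and signalling genes 4 rose, Csf3r among them, and 10 had a positive difference, with a median of 1.34. The list medians at D2 were 1.60 for primary granule genes and 2.89 for other granule genes, beside 0.29 for the members. From D1 to D2 primary granule genes went down in both cultures. With IL-6, 7 of 10 fell (median -2.73), where 33.2% of all probe sets passed in either direction. Without IL-6, 8 of 10 fell (median -3.76), where 23.5% of all probe sets fell. Elane had -2.94 with IL-6 and -5.49 without it, so its D2 difference lies between 2 falling signals.

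Markers of monocytes and macrophages rose in the same arrays. At D2, 7 of 11 rose with IL-6 and 1, Cx3cr1, fell, with a median of 4.0. Csf1r, the receptor for macrophage colony-stimulating factor, had 13.03 and 12.71 in D2-IL6, against 7.36 and 7.12 in D2-Control, and rose by 5.63 ± 0.24. The mean signal of the 11 markers was 10.03 and 9.72 in D2-IL6, against 6.97 and 6.76 in D2-Control, and 9.33 and 9.68 in D1-IL6, against 8.88 and 9.36 in D1-Control. The mean of the 6 non-member neutrophil markers was 5.36 to 6.64 in all 8 cultured arrays, with 0 or 1 of 6 above background. Erythroid markers did not pass in either direction with IL-6 at D2 (0 of 9, median -0.18). The part of these other cells in the rise of Mmp8, Wfdc21 and S100a8 was not tested.

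Cebpe, the regulator of secondary granule genes, was below background in all 8 cultured arrays. In isolated cells it was 11.08 and 7.91 in DKO-I and 10.59 and 10.05 in DWT-I. It was 9.63 and 9.29 in DKO-II+III, against 6.42 and 7.73 in DWT-II+III, a difference of 2.39 ± 0.84 that did not pass (adjusted p = 0.351). At stage IV it was below background in both genotypes. Between DKO-IV and DKO-II+III it fell by 4.14 ± 0.84 (adjusted p = 0.0161), or fell by 1.84 with DKO-IV held at background. Of 12 neutrophil transcription factors, Spi1 (PU.1) alone passed with IL-6 at D2 (4.77 ± 0.48) and in DKO against DWT at stage IV (2.80 ± 0.38, adjusted p = 0.0444).

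In DKO against DWT at II+III, 2 of 16 other secondary and tertiary granule genes rose and all 16 had a positive difference, with a median of 2.40. They were Pglyrp1 (a peptidoglycan recognition protein of granules), up by 3.90 ± 0.56, and Ceacam10, up by 3.39 ± 0.38 or at least 0.61 against background. Of 12 late neutrophil surface and signalling genes, 5 rose, with a median of 3.96. Among them Stfa2l1, a stefin, rose by 5.04 ± 0.76 or at least 3.88 against background, Il1b (interleukin 1 beta) by 4.74 ± 0.49 and Trem1, an activating receptor of myeloid cells, by 4.24 ± 0.60. Of 10 primary granule genes 0 passed, with a median of 0.62. Of 12 inhibitors and partners of the members, such as the metalloprotease inhibitor Timp4, 0 passed at any DKO stage. At stages I and IV 0 genes of the granule and surface lists passed. The medians at stage IV were 1.90 for other granule genes, 1.84 for late neutrophil genes and 0.15 for primary granule genes. The DKO-IV arrays did not agree in the primary granule genes, with mean signals of 10.94 and 8.85, on either side of the 9.42 and 9.71 in DWT-IV. With DKO-I replicate 2 left out, Ceacam10 alone of the granule and surface lists passed at stage I, higher in DKO.

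**Figure D5:**
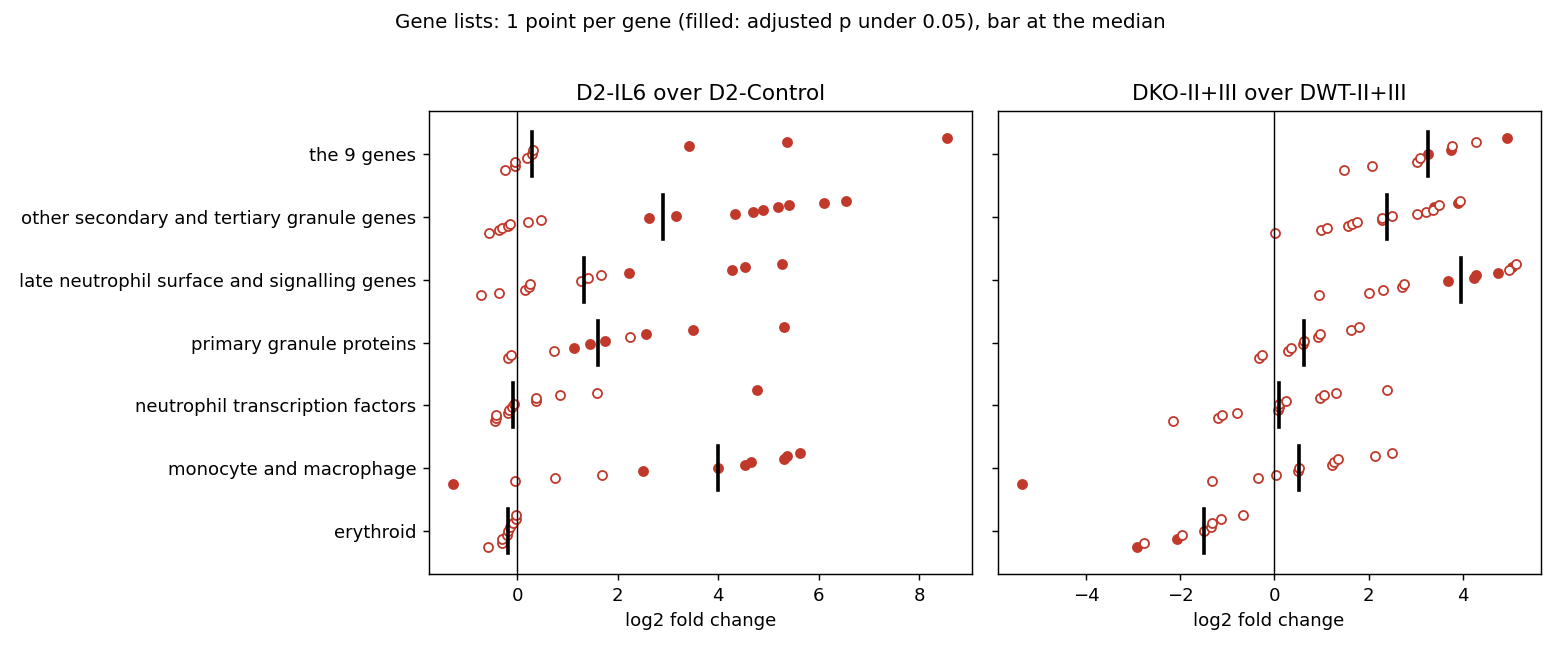
Log2 fold change of every measured gene of 7 lists, the 9 members included, in D2-IL6 over D2-Control (left) and DKO-II+III over DWT-II+III (right), with filled points for adjusted p under 0.05 and a bar at each list's median. The members have medians of 0.29 on the left and 3.26 on the right, and the primary granule genes 1.60 and 0.62.

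Over the 6 isolated groups the correlation of each member with the mean of the other 8 was between 0.896 and 0.998, as a description over group means that share arrays and normalization. It was between 0.916 and 0.998 without DKO-I replicate 2. Over all 10 groups it was 0.500 for Mmp8 and 0.895 to 0.988 for the other 8, or 0.534 and 0.897 to 0.987 without that array. The non-member genes whose group means were most like the mean profile of the 9 members, by Pearson's r over the 10 groups among 9653 candidates, were Chil3 (0.990), Cytip (0.987), Pglyrp1 (0.987), Retnlg (0.986) and Mrgpra2b (0.985). These correlations were between 0.986 and 0.992 without DKO-I replicate 2. Retnlg, a resistin-like gene of neutrophils, had group means of 17.52 in DKO-I and 17.04 in DWT-I, 16.05 in DKO-II+III and 10.92 in DWT-II+III, and 12.61 in DKO-IV and 8.31 in DWT-IV, and was below background in all 4 cultured groups.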

How the data were processed

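RNA of 20 samples was amplified and hybridized to Mouse Clariom S arrays. The deposited log2 values were made by the authors in Affymetrix Expression Console by RMA (robust multi-array average), per the submitters' processing notes, and their versions and whether all arrays were normalized together are not given in the sources used here. No further scaling was applied. They ran from 2.88 to 19.28.

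The array has 28846 probe sets, 22206 of them for transcripts and 19572 with exactly 1 symbol in the platform annotation. The limma package (3.58.1, R 4.3.3) fitted group means with lmFit and eBayes (trend on), for the 8 cultured arrays in 1 fit and the 12 isolated in another, with 4 and 6 residual degrees of freedom and 6.41 and 4.52 prior ones. Tests were 2-sided, with Benjamini-Hochberg adjustment over the 19572 probe sets and a threshold of 0.05. Where both arrays of 1 group were at or below background, a bound against that level is given as well. The fit was run on simulated independent values with known changes, as a check of its estimates and not of the calls reported here. The number of arrays limits the precision.

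All 9 members were named. Of each gene list up to 4 genes with the largest passing, non-overlapping changes were named per comparison, and the 5 genes most like the members. Cebpe, Retnlg, Rps14, Diaph1, Timp4, Fcna and some markers named beside results were chosen otherwise or after their values were seen. The members and lists were chosen with earlier results of these data known. DWT arrays pair by mouse, since the labels give 1 male and 1 female. Their male minus female differences correlated at 0.108, 0.022 and 0.148 between stages. Alternatives were other normalizations, fits and filters, arrays left out, the mouse as a block and no male arrays.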

Additional observations from a re-analysis of the deposited data

Results flagged for a closer look

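Of 27 interaction tests on the members, 2 passed. The IL-6 effect on Mmp8 was larger at D2 than at D1 by 6.52 ± 0.57 (limma, adjusted p = 0.000379). The IL-6 effect on Wfdc21 was larger at D2 than at D1 by 3.72 ± 0.58 (adjusted p = 0.00967), a call lost with all 20 arrays in 1 fit, without D1-Control replicate 2 and without D1-IL6 replicate 1. In both the D2-Control arrays were lower than the D1-Control arrays.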

How the results depend on the processing

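The alternatives were quantile normalization, median centring, no intensity trend, all 20 arrays in 1 fit, only the 4 arrays compared, a filter on dim probe sets, all transcript probe sets, and each array of a comparison left out in turn from its fit, with the remaining array assumed to vary like the other groups. Fits without DKO-I replicate 2, and DWT arrays alone, were chosen after seeing the data. Percentages are shares of all probe sets passing in the same fit. With all 20 arrays in 1 fit the members passing were 1 in DKO-I against DWT-I (2.56%), 7 in DKO-II+III against DWT-II+III (2.79%), 4 in DKO-IV against DWT-IV (0.634%), 7 in DWT-II+III against DWT-I (1.53%) and 1 in the IL-6 interaction (0.276%). With only the 4 arrays compared they were 9 in DWT-II+III against DWT-I (4.65%) and 0 in DKO-II+III against DKO-I (0%), where median centring also gave 0 (0.307%). Without DKO-I replicate 2 in the fit they were 7 in DKO-II+III against DWT-II+III (2.96%), 3 in DKO-IV against DWT-IV (0.307%) and 7 in DWT-II+III against DWT-I (1.51%). The mouse as replicate block gave 7 in DWT-II+III against DWT-I (4.25%), as did DWT arrays alone (3.33%), and the pairing moved no other count by over 1.5 times. Without male arrays 0 passed in DKO-II+III against DWT-II+III (0%). Leaving out 1 array gave 0 to 1 in D1-IL6, 2 to 3 in D2-IL6, 2 to 4 in D2-Control against D1-Control, 2 to 3 in D2-IL6 against D1-IL6, 0 in DKO-I, 0 to 3 in DKO-II+III, 0 to 4 in DKO-IV, 0 to 3 in DWT-II+III against DWT-I, 0 to 6 in DWT-IV against DWT-II+III, 0 to 1 in DKO-II+III against DKO-I, 1 to 2 in DKO-IV against DKO-II+III, 1 to 2 in the IL-6 interaction, and 0 to 3 and 0 in the DKO interactions. Fewer arrays in a fit lower its degrees of freedom, and otherwise the cause was not tested. Of the single values that passed, 253 alternatives kept the call and 17 lost it, and with an array left out 68 kept it and 72 lost it. No called value changed sign under these settings. Signal at or close to background limits Ltf, Camp, Mmp9 and Chil1 in culture, all members in D2-Control, and Ngp and S100a9 in D2-IL6. It also limits Mmp9 and Chil1 in DWT-II+III, DWT-IV and DKO-IV, and Ltf and Mmp8 in DWT-IV.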
